A study of Saccharomyces cerevisiae with 9 samples.

Results

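The transcript levels described here are those of untreated cells of the budding yeast Saccharomyces cerevisiae, in a study that also exposed cells to CdSe/ZnS or InP/ZnS quantum dots, fluorescent semiconductor particles with a zinc sulfide shell. The untreated group comprised 3 libraries, replicates 1 to 3 of 9 in all, labelled as strain S288C with no agent. Per the labels, cells grew in synthetic medium with glucose to an optical density of 0.3 to 0.6 at 600 nm, called mid-log phase, and were then shaken at 220 rpm and 30 °C for 6 h. The labels give no density at harvest and do not say whether the replicates were separate cultures. Libraries were made from poly(A) RNA with a kit that keeps strand and had 15 cycles of amplification. Each deposited table compares 1 kind of quantum dot with the same untreated group, so that the group appears in both, as the first value column of the CdSe/ZnS table and of the InP/ZnS table. Members were the genes with status OK, the software's mark for a testable gene, in both tables. They numbered 6290 of the 7091 entries found in either table.

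Levels are FPKM, fragments per kilobase of transcript and per mapped fragments of the library. Unless said otherwise, 2 values given for a gene are its FPKM in the CdSe/ZnS table and in the InP/ZnS table. Each value pools the 3 libraries, so no spread between replicates, depth or test over libraries can be given, and every statement on levels is a description. The error of a level was bounded by the smaller of the 2 standard errors implied by the authors' own tests (log2 fold change over test score). That bound had a median of 0.240 on the log2 scale, with 5% of genes above 1.02. Levels of 2 genes are called apart here where they differ by more than 1.96 times the combined bound. The bound stems from tests of the same gene between conditions. It leaves out errors of the length correction and of read assignment between genes. The level of a gene is the geometric mean of both tables, and its percentile runs up to 100 for the highest gene. Reads of genes that share a locus with another entry cannot be assigned with confidence. Among the genes named below without that remark, RPL39, CPR1, CDC19, GPM1, EFB1, SSA1, RPL7A, RPL7B, HYP2, HXK1, GPH1, HEF3 and STE3 share theirs. So do COX1 and HXT14.

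A yeast cell growing on glucose ferments most of the sugar to ethanol, even in air, and is known for very high levels of glycolytic enzyme and ribosomal protein transcripts. Glucose represses genes for other sugars, for gluconeogenesis and for part of respiration. Haploid yeast has an a or an alpha mating type, and each type transcribes its own pheromone genes and the receptor for the pheromone of the other. The transcription factor Gcn4 is known to raise genes of amino acid synthesis when amino acids are scarce, and the environmental stress response raises a common set of genes under many stresses while ribosome synthesis genes fall.

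The label was first set against marker genes. S288C is an alpha strain, but the a-specific genes were at the higher levels. MFA1 and MFA2 encode the a-factor pheromone, and MFA1 stood at 18407 and 21072 FPKM and MFA2 at 22155 and 30194 FPKM. MF(ALPHA)1, the main alpha-factor gene, was at 0.848 and 0.894 FPKM and was not testable in the CdSe/ZnS table. The alpha-cell gene STE3, receptor for a-factor, was at 3.76 and 4.12 FPKM. STE2, the receptor for alpha-factor found on a cells, was at 102 and 110 FPKM, and AGA2, a subunit of the a-cell agglutinin, at 363 and 426 FPKM. Summed over the list, 6 a-cell markers reached 41070 and 51851 FPKM, against 78.9 and 92.7 FPKM for 4 alpha-cell markers. Nearly all of the a-cell sum came from MFA1 and MFA2. These have 111 and 117 coding bases, so their FPKM depends strongly on the length correction. Not every a-cell gene was high: BAR1, the protease that degrades alpha-factor, was at 26.0 and 30.0 FPKM and STE6, the a-factor exporter, at 17.5 and 19.6 FPKM. Of the alpha-cell markers, SAG1 (alpha-agglutinin) had 28.3 and 32.4 FPKM and MF(ALPHA)2 had 45.9 and 55.3 FPKM. A further gene of each type lies outside these markers: YLR040C, listed as alpha-specific, was higher than any alpha-cell marker at 73.0 and 82.4 FPKM but shares its locus with another entry, and the a-specific ASG7 was at 17.2 and 17.7 FPKM. The sums leave both out.

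The coding sequences of the 2 a-factor genes are shown because they carry the mating-type finding and because both are short and alike. They are from RefSeq assembly R64, 5′ to 3′ on the coding strand, and capitals mark the longest run of bases that both share, 11 bases. MFA1 lies at chrIV:1385176-1385286 on the plus strand and MFA2 at chrXIV:352414-352530 on the plus strand. In the aligned coding sequences 72.7% of positions were identical.
MFA1: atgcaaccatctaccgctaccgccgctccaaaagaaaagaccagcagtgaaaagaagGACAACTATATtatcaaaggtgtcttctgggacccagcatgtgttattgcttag
MFA2: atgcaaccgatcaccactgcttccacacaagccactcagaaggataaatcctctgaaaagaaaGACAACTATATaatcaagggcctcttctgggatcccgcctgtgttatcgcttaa

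Strain S288C carries intact URA3 and LEU2, which encode enzymes of uracil and leucine synthesis. URA3 was listed at 0 in the CdSe/ZnS table and at 0.103 FPKM in the InP/ZnS table. LEU2 was at 0.107 FPKM in the InP/ZnS table and had no entry in the other. Both are loci that many laboratory strains have lost. Others of that kind had levels well above 0: HIS3 (histidine synthesis) at 1671 and 2097 FPKM, LYS2 (lysine synthesis) at 268 and 306 FPKM, ADE2 (adenine synthesis) at 184 and 214 FPKM and TRP1 (tryptophan synthesis) at 96.7 and 115 FPKM. HIS3 and TRP1 each share a locus with another entry, so their levels are less certain than those of LYS2 and ADE2. The mating-type and the URA3 and LEU2 values go against the strain label, and because each column is a pool it cannot be said of which libraries they hold. No other strain is named here.

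Markers of growth state gave a mixed picture. The 8 markers of growth on glucose had a median percentile of 98.8, with HXT3, a low-affinity glucose transporter, at 2412 and 2824 FPKM. The 14 glucose-repressed genes had a median percentile of 25.01, yet ranged up to 138 FPKM in the CdSe/ZnS table for ADH2, the alcohol dehydrogenase that consumes ethanol. Other members of the repressed list at over 100 FPKM in both tables were ICL1 (isocitrate lyase, 115 and 133 FPKM) and JEN1 (lactate permease, 100.1 and 121 FPKM). The 11 markers of late growth and stationary phase had a median percentile of 83.3. SNZ1, a vitamin B6 synthesis gene induced in stationary phase, reached 4969 and 5802 FPKM, HSP12, a membrane-protecting small heat shock protein, 2018 and 2556 FPKM, and GRE1, a stress-induced hydrophilin, 1292 and 1598 FPKM. Lower ones were CTT1 (cytosolic catalase) at 56.1 and GPH1 (glycogen phosphorylase) at 26.3 FPKM in the CdSe/ZnS table. The cultures were thus in mid-log phase by their label before the 6 h incubation, and genes of both glucose growth and late growth were at high levels at harvest. In these bulk samples fewer cells in a state and less RNA per cell cannot be told apart.

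**Figure D1:**
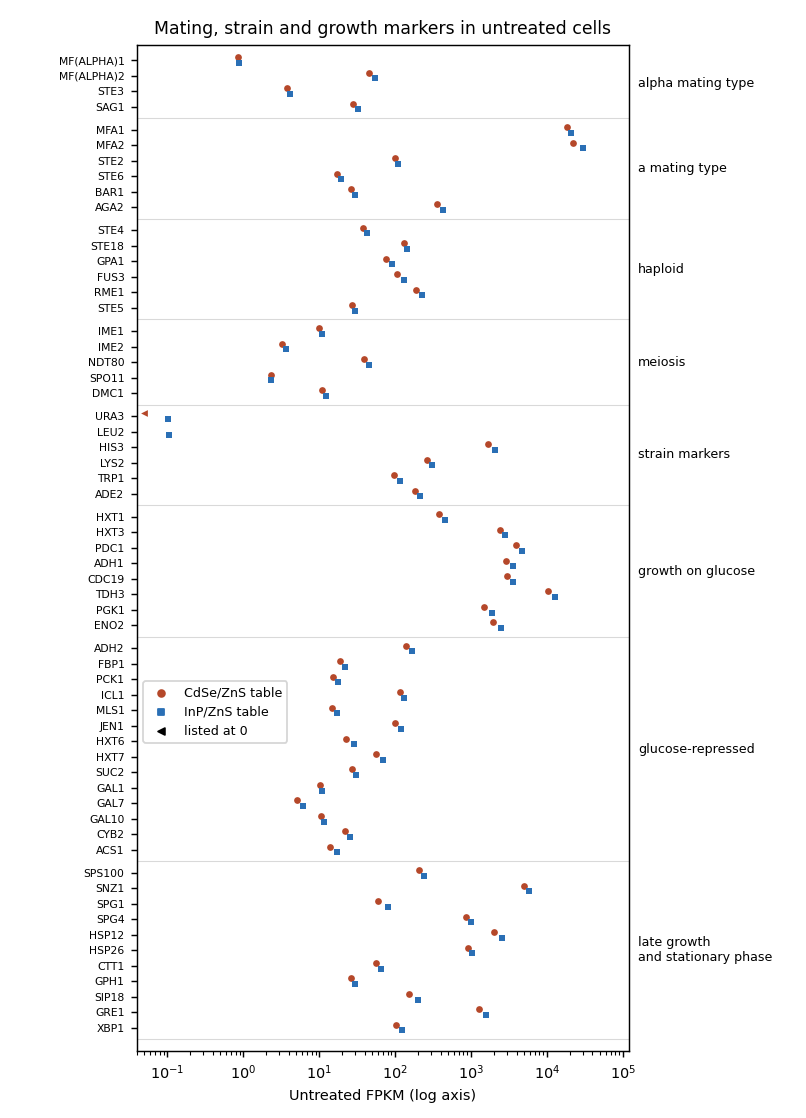
Untreated FPKM (log axis) of every marker gene, with circles for the CdSe/ZnS table and squares for the InP/ZnS table, 1 pooled value per gene and table; a triangle marks a gene listed at 0. MFA1 and MFA2 lie at 18407 FPKM or above while MF(ALPHA)1 lies below 1, and URA3 and LEU2 lie at or near 0.

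The transcript pool was concentrated in few genes. The 100 highest genes held 44.8% of the summed FPKM (29.6% with FPKM multiplied by locus length), the 20 highest entries 25.9% and the 2 highest 9.74%, and 145 genes held 50%. The median gene stood at 48.2 FPKM in the CdSe/ZnS table and 54.6 FPKM in the InP/ZnS table, and the middle 80% of genes lay between 10.3 and 417 FPKM in level.

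Both of the highest genes are short reading frames known mainly by systematic name. YPR036W-A, named SPO24 in RefSeq, reached 79647 and 91272 FPKM and was 204 bases long in coding sequence. YDR524C-B, of 201 bases, reached 69783 and 76631 FPKM. They were not apart from each other, but YDR524C-B was 1.07 higher on the log2 scale than the third gene, HOR7, and this was the only step of 19 between neighbours among the 20 highest protein-coding genes that exceeded 1.96 errors. HOR7, a hyperosmolarity-responsive gene, had 32226 and 37458 FPKM. The order of the others is within error from each gene to the next.

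The coding sequences of the pair at the top are shown because together they hold 9.74% of the summed FPKM and differ in codon choice. Capitals mark codons of a set of 23 that strongly transcribed yeast genes are known to prefer, at most 2 per amino acid. YPR036W-A lies at chrXVI:645950-646153 on the plus strand and YDR524C-B at chrIV:1489598-1489798 on the minus strand (R64), and each is written 5′ to 3′ on its coding strand. Preferred codons made up 63.6% of YPR036W-A and 93.8% of YDR524C-B.
YPR036W-A: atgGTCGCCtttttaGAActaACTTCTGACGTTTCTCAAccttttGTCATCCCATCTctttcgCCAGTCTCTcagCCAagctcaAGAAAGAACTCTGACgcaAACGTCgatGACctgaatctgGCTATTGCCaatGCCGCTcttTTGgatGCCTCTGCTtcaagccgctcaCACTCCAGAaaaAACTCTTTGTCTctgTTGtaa
YDR524C-B: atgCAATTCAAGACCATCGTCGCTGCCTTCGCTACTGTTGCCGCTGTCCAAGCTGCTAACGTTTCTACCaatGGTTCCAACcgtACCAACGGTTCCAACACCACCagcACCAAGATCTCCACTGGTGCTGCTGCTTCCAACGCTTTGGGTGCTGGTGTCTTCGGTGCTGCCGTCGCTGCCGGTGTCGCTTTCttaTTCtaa

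Among the rest of the 20 highest were the cell wall mannoproteins CCW12 (21101 and 25766 FPKM) and CWP2 (10234 and 11492 FPKM), and 5 ribosomal protein genes, RPS29B, RPL39, RPS30A, RPL29 and RPS28A. RPS29B led these with 15582 and 18420 FPKM. COX9, a subunit of cytochrome c oxidase, had 12387 and 14231 FPKM, and TDH3, the main glyceraldehyde-3-phosphate dehydrogenase, 10373 and 12823 FPKM. The small membrane proteins PMP1, a regulator of the plasma membrane proton pump, and PMP3 had 9634 and 10321 FPKM, and 7157 and 7307 FPKM. TMA10, a ribosome-associated protein, had 9357 and 11488 FPKM and DDR2, a multistress gene, 8809 and 10297 FPKM. YBR085C-A and YDL012C completed the set with 10542 and 11760 FPKM, and 6730 and 7901 FPKM.

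Of these 20 genes, 17 had coding sequences under 300 bases, and their median was 189 bases against 1215 bases for all measured protein-coding genes. FPKM divides by length, so the rank of a short gene depends on that correction. FPKM multiplied by locus length stands for fragments only roughly, because a locus also counts introns and neighbours that share it. In that measure 7 of the 20 stayed among the 20 highest, and YPR036W-A, YDR524C-B, TDH3, CCW12 and RPL39 led. RPL39 has 156 coding bases but spans chrX:75933-76474 and shares its locus, so its place there is uncertain. Very short genes can also be lost: of 20 entries with under 100 coding bases, 4 were measured and 16 had no value above 0. Among these were RPL41A and RPL41B, which encode the smallest ribosomal protein.

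Some entries without a gene name were also at the top. YNL103W-A (10103 and 15890 FPKM), YFL031C-A (8619 and 9611 FPKM) and YKL156C-A (9412 and 3880 FPKM) have no RefSeq counterpart and share a locus with another gene, so that their reads cannot be assigned with confidence. The implied errors were correspondingly wide, 14.1, 2.56 and 1.07 on the log2 scale. YDR134C, a pseudogene of the CCW family, had 7456 and 8758 FPKM and likewise shares its locus. YPR145C-A had 6324 and 8164 FPKM and YHR162W, named MPC2 in RefSeq and a subunit of the mitochondrial pyruvate carrier, 5180 and 6139 FPKM.

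Grouped by role, 28 of 41 gene lists had a median percentile of at least 50 and 5 of at least 90, beside 50.0 for all genes. Those 5 were glycolysis (97.5), histones (97.2), cytosolic ribosomal proteins (95.9), amino acid synthesis (93.0) and chaperones (91.4). At the other end, meiosis and sporulation genes had a median percentile of 3.77 and cyclins with G1/S genes 18.2.

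**Figure D2:**
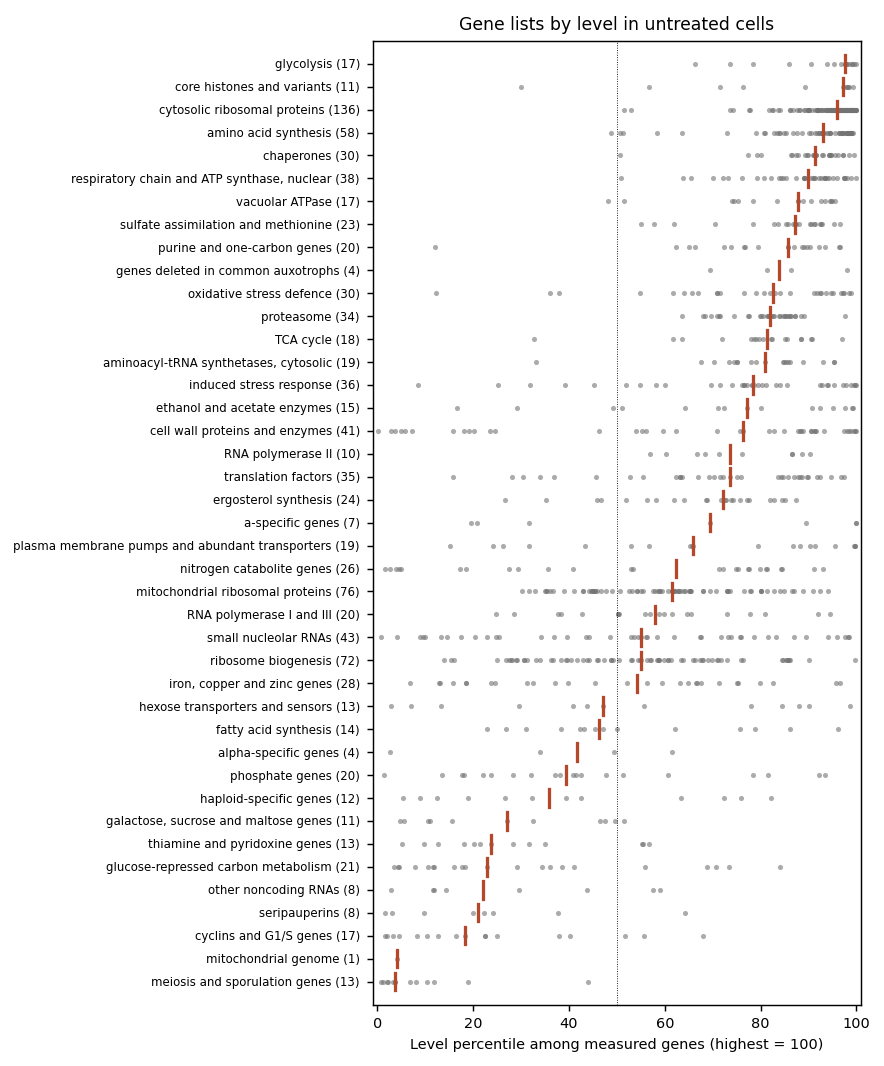
Level percentile of each measured member (grey points) and the median (red bar) of 41 gene lists, with the number measured in brackets; 100 is the highest of 6290 genes and the dotted line is 50. Medians run from 97.5 for glycolysis down to 3.77 for meiosis and sporulation genes.

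Sugar metabolism was led by the glycolytic enzymes, of which all 17 were above percentile 50 and 13 at or above 90. After TDH3 came FBA1 (fructose-bisphosphate aldolase, 5421 and 6468 FPKM), CDC19 (pyruvate kinase, 2959 and 3603 FPKM) and GPM1 (phosphoglycerate mutase, 2869 and 3613 FPKM). The phosphofructokinase subunits PFK1 (115 and 137 FPKM) and PFK2 (152 and 176 FPKM) were among the lowest, together with PYK2, the minor pyruvate kinase (86.2 and 99.6 FPKM). The ethanol branch was led by PDC1, the main pyruvate decarboxylase, at 3974 and 4789 FPKM and by ADH1, the main fermentative alcohol dehydrogenase, at 2897 and 3591 FPKM. ACS1, an acetyl-CoA synthetase repressed by glucose, was lowest in that list at 14.1 and 17.0 FPKM.

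Hexose transporter transcripts differed widely in level. HXT3 was followed by HXT1 (376 and 462 FPKM), HXT4 (315 and 356 FPKM) and HXT2 (229 and 267 FPKM). The galactose transporter GAL2 stood at 7.38 and 8.47 FPKM and HXT8 at 3.67 and 4.54 FPKM, while 6 of the 19 members (HXT9, HXT10, HXT11, HXT14, HXT15 and HXT16) were not measured in both tables. Of these, HXT16 was listed at 0 in both.

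Genes for other carbon sources were low. Of 21 glucose-repressed genes of carbon metabolism, 16 were below percentile 50, and FBP1 and PCK1, which encode enzymes of gluconeogenesis, had 18.8 and 15.4 FPKM in the CdSe/ZnS table. SFC1, a mitochondrial succinate-fumarate carrier, was lowest at 4.25 and 4.98 FPKM. YAT2, a carnitine acetyltransferase, was the highest of that list at 219 and 261 FPKM. The galactose, sucrose and maltose list had 10 of 11 measured genes below percentile 50. GAL1 (galactokinase) had 10.4 and 11.01 FPKM and GAL7, the uridylyltransferase of the same pathway, 5.18 and 6.23 FPKM.

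Respiratory genes encoded in the nucleus were high, with all 38 above percentile 50 and a median of 89.8. COX9 was followed by the ATP synthase subunits ATP15 (3076 and 3291 FPKM), ATP19 (1747 and 2115 FPKM) and ATP18 (1478 and 1690 FPKM). Lowest were the NADH dehydrogenases NDI1 (77.7 and 91.0 FPKM) and NDE2 (48.9 and 56.4 FPKM). Genes of the mitochondrial genome were at the opposite end. Of 20 entries only OLI1, which encodes an ATP synthase subunit, was measured in both tables, at 4.44 and 6.0 FPKM. COX1, a cytochrome c oxidase subunit, was at 0.0849 and 0.252 FPKM, and 11 entries had no value above 0. Of these only ATP8 was listed at 0 in both tables, and the others had no entry in the CdSe/ZnS table. The poly(A) step of the kit keeps few RNAs without a long tail, which yeast mitochondrial RNAs lack, and its part in these values was not tested. Mitochondrial ribosomal proteins, encoded in the nucleus, had a median percentile of 61.5, led by RSM19 (639 and 827 FPKM).

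In the TCA cycle, CIT2 was highest at 1289 and 1456 FPKM. It encodes the peroxisomal citrate synthase, and CIT3, the minor mitochondrial form, was lowest at 27.2 and 30.8 FPKM. SDH4, a membrane anchor of succinate dehydrogenase, followed CIT2 at 394 and 519 FPKM.

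Cytosolic ribosomal protein genes held 14.3% of the summed FPKM, and all 136 measured members lay above percentile 50, 113 of them at or above 90. Their median level was 1043 FPKM. The lowest were RPS9A (56.6 and 56.4 FPKM) and RPL7B (50.5 and 57.4 FPKM), each the minor member of its pair. Genes that build ribosomes were much lower, with a median percentile of 55.0 over 72 genes and 31 of them below 50. NOP10, a small subunit of box H/ACA RNPs, was the exception at 5736 and 7094 FPKM, while the next, NHP2 of the same complex, had 377 and 469 FPKM. UTP10 (13.5 and 15.3 FPKM) and UTP22 (12.7 and 14.1 FPKM), of the small subunit processome, were lowest. RNA polymerases I and III had a median percentile of 57.9 and RNA polymerase II 73.6.

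Translation factors covered a wide range, from SUI1 (initiation factor eIF1, 1425 and 1612 FPKM) and EFB1 (elongation factor eEF1B, 1175 and 1431 FPKM) to NIP1 (an eIF3 subunit, 25.7 and 27.4 FPKM). ANB1, the eIF5A gene used in the absence of oxygen, had 22.7 and 25.9 FPKM and HEF3, the minor elongation factor 3, 14.003 and 15.6 FPKM. Aminoacyl-tRNA synthetases had a median percentile of 81.0, led by KRS1 for lysine (885 and 1026 FPKM) and DPS1 for aspartate (875 and 1021 FPKM).

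Amino acid synthesis genes were the fourth highest list, with 40 of 58 at or above percentile 90 and 57 above 50. ARG1, argininosuccinate synthetase, led with 4440 and 5329 FPKM. ARG4 (argininosuccinate lyase) had 3012 and 3489 FPKM, ILV6 (regulatory subunit of acetolactate synthase) 2882 and 3462 FPKM, and HIS4 (histidine synthesis) 2873 and 3346 FPKM. The lowest were PRO1 for proline (50.3 and 54.2 FPKM) and SER2 for serine (47.3 and 51.3 FPKM). GCN4 had 1349 and 1487 FPKM, at percentile 97.2, and PCL5, a cyclin that promotes degradation of Gcn4, 4499 and 5039 FPKM, both of which were picked after their values were seen. The related purine and one-carbon list had a median percentile of 85.8, led by GCV3 (glycine cleavage, 1107 and 1402 FPKM). IMD2, IMP dehydrogenase, was the single member below 50, at 10.7 and 13.0 FPKM. Sulfate assimilation and methionine genes had a median percentile of 87.3 with all 23 above 50, led by MET16 (PAPS reductase, 1125 and 1295 FPKM) and CYS3 (cystathionine gamma-lyase, 868 and 1047 FPKM).

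The letters of the Gcn4 motif, TGACTC on either strand, were searched in the 500 bases before each start codon. They occurred before 42 of 58 amino acid synthesis genes (72.4%) and 15 of 20 purine and one-carbon genes, against 738 of all 5677 measured nuclear protein-coding genes (13.0%). The 4 highest genes of amino acid synthesis are shown with the match nearest to the start codon, in windows of 30 bases on the coding strand, with the match in capitals. The windows lie at chrXV:218925-218954 (plus strand, 274 bases before the start codon) for ARG1, chrVIII:141564-141593 (minus strand, 179 bases) for ARG4, chrIII:105681-105710 (minus strand, 150 bases) for ILV6 and chrIII:68515-68544 (minus strand, 199 bases) for HIS4 in R64. A match is a run of letters and was not tested for binding.
ARG1: tgccgtatggaaGAGTCAtttaaaggcagg
ARG4: ttagtagatgaaTGACTCactttttggata
ILV6: tcaccgttatcgTGACTCactttctttcgc
HIS4: acccatgcacagTGACTCacgtttttttat

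Letters of other motifs were counted in the same way. GATGAG, the core of the PAC element, occurred before 66 of 72 ribosome biogenesis genes (91.7%) and 17 of 20 genes for RNA polymerases I and III (85.0%), against 27.9% of all genes. AAAATTTT, the core of the RRPE element, occurred before 59 of the 72 (81.9%), against 12.9% of all. It was also frequent before translation factors (26 of 35, 74.3%), RNA polymerase I and III genes (12 of 20, 60%) and cytosolic aminoacyl-tRNA synthetases (11 of 19, 57.9%). ACCCANACA, a form of the Rap1 site, was found before 45 of 136 ribosomal protein genes (33.1%), against 3.08% of all. AGGGG, the stress response element, was found before 30 of 36 genes of the induced stress response (83.3%), against 34.5% of all. By level, AGGGG occurred before 47.5% of the highest 10% of genes, against 28.7% of the lowest 10%, while GATGAG occurred before 26.4% of the highest 10% and 25.04% of the lowest 10%. ACCCANACA occurred before 8.45% of the highest 10% and 2.12% of the lowest 10%, and AAAATTTT before 12.9% and 6.35%. All letters were searched on both strands, and none of these motifs contains another.

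Stress and chaperone genes were well above the median gene. The induced stress response list had 31 of 36 above percentile 50 and 11 at or above 90. HOR7 and DDR2 led it, followed by SNZ1 and by SPI1, a cell wall protein of late growth, at 2775 and 3406 FPKM. GND2 (20.2 and 24.0 FPKM) and GAC1 (8.96 and 9.50 FPKM) were lowest, the minor phosphogluconate dehydrogenase and a glycogen-associated phosphatase subunit. Chaperones all lay above percentile 50, led by the cyclophilin CPR1 (4664 and 5547 FPKM), HSP12, HSP10 of the mitochondrial chaperonin (1349 and 1539 FPKM) and HSP42 (1269 and 1542 FPKM). SSA3 and SSA4, the Hsp70 genes induced by heat, had 49.0 and 55.6 FPKM, and 142 and 166 FPKM. In oxidative defence the peroxiredoxins AHP1 (2917 and 3215 FPKM) and TSA1 (1273 and 1543 FPKM), superoxide dismutase SOD1 (2127 and 2724 FPKM) and glutaredoxin GRX1 (1361 and 1588 FPKM) were highest. CTA1, the peroxisomal catalase, was at 30.4 and 35.1 FPKM.

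Cell surface genes were split. CCW12, CWP2, SED1 (5565 and 6523 FPKM) and UTH1 (2690 and 3291 FPKM) led 41 cell wall genes, of which 13 lay at or above percentile 90 and 6 below 10. At the bottom were the flocculin FLO1 (3.64 and 4.65 FPKM) and DAN1, a mannoprotein of anaerobic cells (0.669 and 0.828 FPKM). The seripauperins, a family mostly near chromosome ends that is induced without oxygen, had 8 of 24 members measured, with PAU7 highest at 75.5 and 96.8 FPKM and PAU3 lowest at 2.31 and 3.39 FPKM. PAU1, PAU6, PAU9, PAU14, PAU18, PAU21 and PAU22 were listed at 0 in both tables. Copies of this family are nearly identical, so their reads may have been split or left out, which was not tested, and the family's levels are uncertain. Among transporters, PMA1, the plasma membrane proton pump, had 401 and 481 FPKM, far below its small partner PMP1 per length of transcript.

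Metal genes had a median percentile of 54.3, led by the metallothionein CRS5 (1110 and 1388 FPKM) and the cell wall siderophore protein FIT3 (895 and 1127 FPKM). The copper metallothioneins CUP1-1 and CUP1-2, a near-identical repeat, were listed at 0 in both tables, and no level can be given for them. Phosphate genes had a median percentile of 39.5, led by VTC1 (590 and 695 FPKM) and PHO8 (501 and 596 FPKM). PHO12 was the lowest measured member at 2.48 and 2.91 FPKM. Between these, the acid phosphatase PHO5 had 14.7 and 18.2 FPKM and the high-affinity transporter PHO84 36.7 and 43.9 FPKM. The vacuolar ATPase was high, with a median percentile of 87.9 and VMA10 first at 889 and 1062 FPKM. STV1, its Golgi-specific subunit, was lowest at 45.0 and 52.2 FPKM, against 121 and 135 FPKM for VPH1, the subunit in its place at the vacuole.

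Cell cycle genes were low. SIC1, the inhibitor of S-phase kinase, led the cyclin list at 97.0 and 103 FPKM, followed by PCL1 (57.4 and 66.5 FPKM) and the G1 cyclin CLN3 (52.1 and 56.5 FPKM). The mitotic cyclin CLB2 had 2.93 and 3.32 FPKM, the S-phase cyclin CLB5 3.895 and 4.77 FPKM and the G1/S factor SWI4 2.87 FPKM in both tables. CLB6 was not testable, at 0.317 and 0.365 FPKM. Core histones were high at the same time, and CSE4, the centromeric histone, was at 23.9 and 29.0 FPKM. Of the meiosis genes, NDT80, the meiotic transcription factor, was highest at 38.6 and 45.8 FPKM, and SPO11, which makes meiotic breaks, was at 2.36 and 2.36 FPKM. No measured meiosis gene reached percentile 50.

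Noncoding RNAs without a poly(A) tail were uneven. Of 71 small nucleolar RNAs, 43 were measured and 22 had no value above 0 in either table. snR76 led with 2260 and 2214 FPKM, and snR37 was lowest at 2.24 and 1.69 FPKM. The signal recognition particle RNA SCR1, an abundant RNA, had 56.0 and 79.7 FPKM, and the telomerase RNA TLC1 had 13.2 and 14.03 FPKM. These levels depend on how completely the poly(A) step removed them, which was not tested.

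Within pairs of related genes the difference in level was often large. PDC1 exceeded PDC5, a reserve pyruvate decarboxylase, 82.2-fold (48.6 and 57.9 FPKM for PDC5). CDC19 exceeded PYK2 35.2-fold and ADH1 exceeded ADH2 21.1-fold. PET9, the main ADP/ATP carrier, exceeded AAC3, its counterpart for anaerobic growth, 30.1-fold, and HYP2 exceeded ANB1, both encoding eIF5A, 16.5-fold. HTA1 exceeded HTA2, which encode nearly the same histone H2A, 12.3-fold, and HTB1 exceeded HTB2 5.19-fold, while HHT1 and HHF1 lay below HHT2 and HHF2, at 0.438 and 0.631 times their levels. TDH3 exceeded TDH2 9.07-fold and TDH1 7.42-fold. PMA1 exceeded PMA2 10.6-fold. The folds were alike in both tables, as for PDC1 over PDC5 with 81.8 and 82.7. In all, 14 of 27 pairs were apart by more than 1.96 errors.

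**Figure D3:**
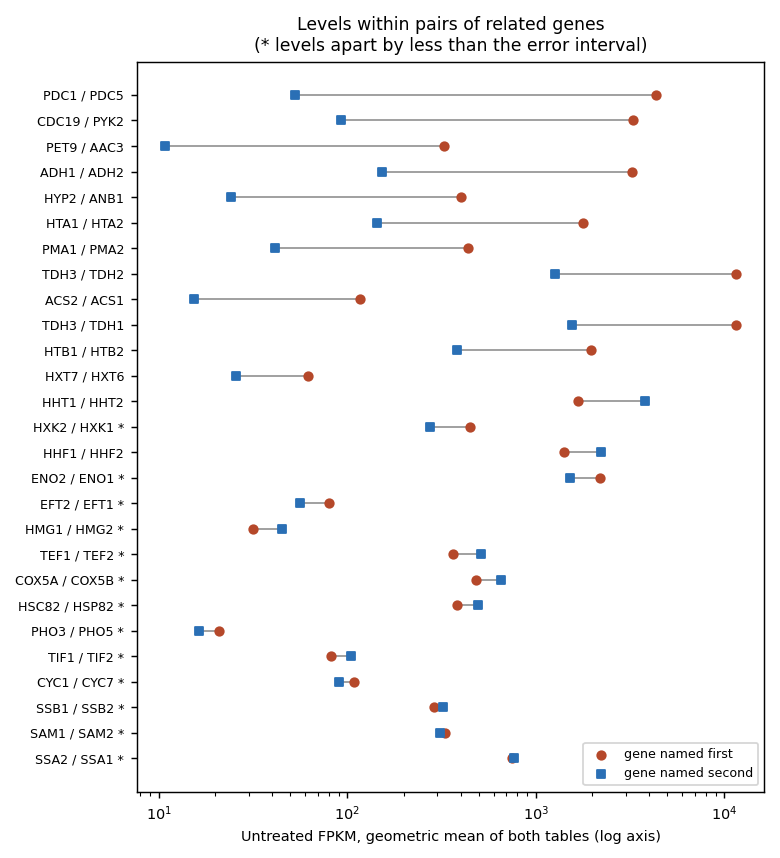
Level (geometric mean of both tables, FPKM, log axis) of both members of 27 pairs of related genes, ordered by the size of their difference; circles show the gene named first and squares the gene named second, and an asterisk marks pairs that differ by less than 1.96 errors. PDC1 and PDC5 lie furthest apart, and SSA2 and SSA1 closest.

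The other 13 pairs could not be separated at this error. They included the enolases ENO2 and ENO1 (1.44-fold), the hexokinases HXK2 and HXK1 (1.64-fold), the cytosolic Hsp90 genes HSC82 and HSP82 (0.773-fold) and the Hsp70 genes SSA2 and SSA1 (0.973-fold). Of the 13, 3 have nearly identical coding sequences, the elongation factor pairs TEF1 and TEF2 (99.9% identical) and EFT2 and EFT1 (99.8%) and the eIF4A pair TIF1 and TIF2 (99.5%). Their reads cannot be assigned by sequence in the coding region, and their levels were modest (347 and 382 FPKM for TEF1, 50.6 and 62.2 FPKM for EFT1), so the split and the level of these genes are uncertain. The same holds for HXT7 over HXT6 (2.41-fold, 99.8% identical). COX5A and COX5B, the aerobic and hypoxic forms of a cytochrome c oxidase subunit, had 433 and 532 FPKM, and 601 and 708 FPKM.

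The 2 pyruvate kinase genes are shown by the first 120 coding bases because they differ in level by 35.2-fold and in codon choice. Capitals again mark preferred codons, which made up 95.5% of CDC19 and 50.6% of PYK2 over their whole length. CDC19 lies at chrI:71786-73288 on the plus strand and PYK2 at chrXV:984942-986462 on the minus strand (R64).
CDC19: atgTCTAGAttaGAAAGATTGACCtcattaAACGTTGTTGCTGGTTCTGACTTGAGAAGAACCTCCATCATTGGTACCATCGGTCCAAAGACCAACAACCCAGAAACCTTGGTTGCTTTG
PYK2: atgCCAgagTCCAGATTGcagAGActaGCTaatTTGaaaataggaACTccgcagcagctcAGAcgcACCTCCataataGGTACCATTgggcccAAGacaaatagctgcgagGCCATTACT

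Ribosomal proteins come mostly from 2 genes, named A and B, with nearly the same product. Of 59 such pairs, 58 were measured in both members. The A gene was the higher of the 2 in 38 and the B gene in 20. The higher gene exceeded the lower by a median of 1.75 times, 24 pairs differed by over 2 times and 9 by over 4 times, and 30 pairs by more than 1.96 errors. RPL7A exceeded RPL7B 7.65-fold, with 386 and 439 FPKM for RPL7A. RPS9A stood at 0.0822 times RPS9B, which had 648 and 730 FPKM. Coding identity within the pairs was 93.1% in the median and ranged from 68.9% to 99.4%, so that the split is less certain for the closest pairs. Summed over a pair, levels had a median of 1821 and 2199 FPKM and ranged from 366 to 21590 FPKM in the CdSe/ZnS table. The lowest sum was that of RPL1A (146 and 166 FPKM) and RPL1B (221 and 239 FPKM), the closest pair at 99.4% identity. How reads that fit both genes were counted is not known here, so sums of the closest pairs are uncertain too.

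Subunits of the same complex also differed in level. In the proteasome, SEM1 (1389 and 1708 FPKM) exceeded RPN1 (79.9 and 87.4 FPKM) 18.4-fold. The second subunit by level, PUP3, had 341 and 416 FPKM. RPB11 of RNA polymerase II (408 and 465 FPKM) exceeded RPB2 (60.9 and 70.6 FPKM) 6.64-fold. In each case the highest member was shorter than the median of its list. That held for 28 of 34 lists with at least 10 measured coding genes, and the Spearman correlation of level with coding length was negative in 30 of the 34. Amino acid synthesis was an exception, with a Spearman correlation of 0.02 across 58 genes.

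Across the 5677 measured nuclear protein-coding genes, level went with several features of the coding sequence, given here as descriptions across genes, which are not replicates. Spearman's correlation of level was 0.44 with the share of preferred codons, -0.42 with coding length (0.049 with FPKM multiplied by locus length) and 0.49 with the GC content of the coding sequence. Preferred codons and length were nearly unrelated to each other (-0.03). The median share of preferred codons was 63.1% in the highest 10% of genes by level, against 44.0% in the lowest 10%. The codon set is one known from strongly transcribed genes, so a rise of its share with level was partly fixed in advance. Median coding length was 555 bases in the highest 10%, against 1731 bases in the lowest 10%. Genes with an intron made up 17.96% of the highest 10%, against 3.53% of the lowest 10%. Of the 269 genes with an intron, 90 encode ribosomal proteins. The median percentile was 95.8 in these 90 and 63.4 in the other 179, against 49.8 for genes without an intron. Among ribosomal protein genes, the 46 without an intron had a median percentile of 96.2, close to that of the 90 with one.

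**Figure D4:**
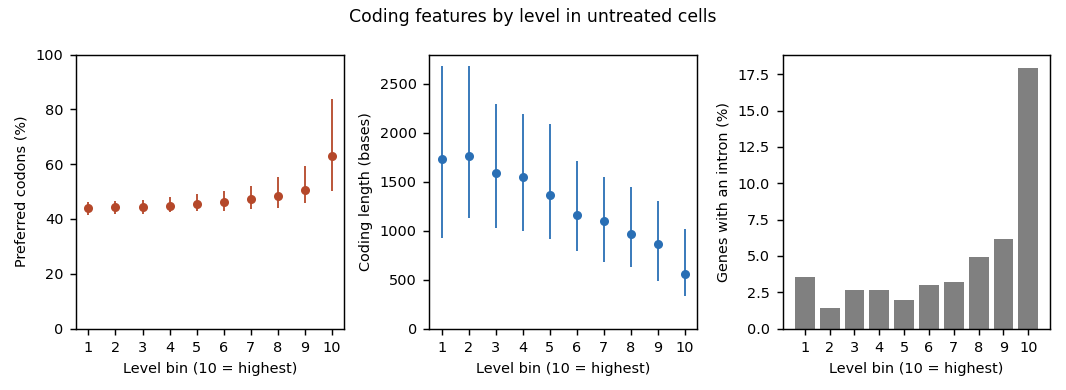
Share of preferred codons (%), coding length (bases) and share of genes with an intron (%) in 10 equal bins of 5677 genes by level, bin 10 being the highest; points are medians and lines span the middle 50% of genes. Preferred codons and introns are most frequent in bin 10, and coding length is shortest there.

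Lists followed the codon trend with exceptions. Glycolysis (92.5%) and cytosolic ribosomal proteins (89.0%) had the highest median shares of preferred codons, beside 46.1% for all genes. Given how the codon set is defined, high shares in lists of strongly transcribed genes were partly fixed in advance. The seripauperins had a median share of 86.3% but a median percentile of 21.1 in level over the 8 measured members. Their levels are uncertain because copies of the family are nearly identical. ANB1 (85.9% preferred codons) and TIR1 (85.4%), a cell wall mannoprotein of anaerobic cells at 7.65 and 8.34 FPKM, were further genes of high share and low level. In the other direction, YPR145C-A, at 6324 and 8164 FPKM, had 31.6% preferred codons, the lowest share in the highest 10% of genes.

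Genes near chromosome ends were compared with the rest by description only. Of 240 protein-coding entries within 20 kb of a chromosome end, 59.2% were measured, against 96.6% of 5729 entries farther away. The 142 measured genes near the ends had a median percentile of 26.6, against 51.4 for the other 5535. Many genes near the ends belong to families of close copies, whose part in this difference was not tested.

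The untreated columns of both tables stand for the same 3 libraries by the labels, so a difference between them is not a difference between samples. Levels were lower in the CdSe/ZnS table for 6044 genes (96.1%), with a median log2 ratio of -0.19 (0.877 times). The middle 50% of genes lay between -0.25 and -0.14. The shift was larger for the highest genes, -0.24 above 1000 FPKM and -0.16 below 10 FPKM, and larger for coding lengths up to 300 bases (-0.22) than over 3000 bases (-0.16). Once the median was taken out, the typical difference was 1.04-fold and 84.2% of genes were within 1.1-fold. Spearman's correlation across genes was 0.998. The tables shared 19 of the 20 highest entries, 95 of the 100 highest and 486 of the 500 highest, and the median gene moved by 40 ranks.

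After centring on the median, 77 of 6290 genes (1.22%) were apart by over 1.5 times between the columns, 37 (0.588%) higher and 40 (0.636%) lower in the CdSe/ZnS table. Of the 77 genes, 37 (48.1%) shared a locus with another entry, beside 18.3% of all genes. No RefSeq counterpart was found for 41 of the 77, beside 544 of all 6290 genes (8.65%). Among entries alone at their locus, 40 genes were apart, and 116 were apart when every entry above 0 in both tables was counted. These settings cover different numbers of entries, so the counts cannot be compared as shares. The 77 genes had a median locus length of 393 bases, beside 1251 for all, and a median level of 10.9 FPKM, beside 51.2. No RefSeq coding gene longer than 600 bases was among the 77. After centring, 62 genes (0.986%) differed by more than their error bound itself. That bound comes from tests between conditions and covers spread between libraries. Both columns stand for the same libraries, so this count does not measure how well they agree.

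At 10 FPKM or more in both tables, the entries furthest apart were YDR371C-A (496 FPKM in the CdSe/ZnS table, 146 FPKM in the InP/ZnS table), snR68 (55.4 and 20.1 FPKM), YLR347W-A (185 and 70.5 FPKM), YKL156C-A and YNR075C-A (441 and 217 FPKM). In the other direction came YOR008W-B (141 and 370 FPKM), snR41 (1020 and 2304 FPKM), YMR307C-A (19.5 and 40.5 FPKM), YLR466C-B (249 and 492 FPKM) and YOL083C-A (52.2 and 102 FPKM). Of these 10, 5 share their locus with another entry, and the other 5 lie at loci of 93 to 136 bases.

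**Figure D5:**
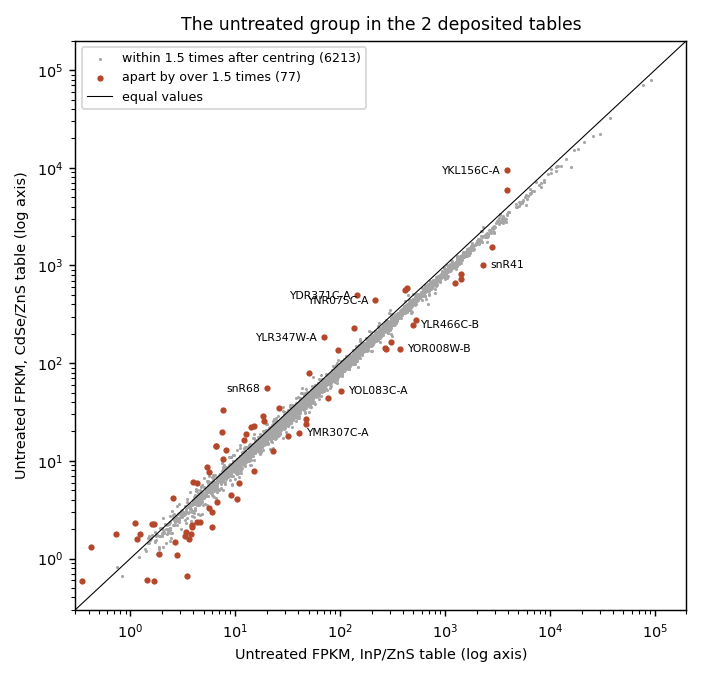
Untreated FPKM of 6290 genes in the InP/ZnS table (x) and in the CdSe/ZnS table (y), both on log axes, with the line of equal values; red points are the 77 genes apart by over 1.5 times after centring and the 10 named entries are labelled. Most points lie just below the line, and the median ratio is 0.877 times.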

How the data were processed

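RNA-seq reads were processed by the authors in Galaxy, per the deposited text sheets: low-quality bases (score under 20) and the first 12 bases of each read were cut off, and trimmed reads shorter than 80 bases were left out. Per the submitters' processing notes, TopHat and Cuffdiff were used; their versions, strand settings and library normalisation were not given in the sources used here. The authors deposited 1 FPKM per gene and condition, which pools 3 libraries, so depth is unknown. The log2 fold change and the test score of each gene are also the authors' deposited values and served only for the error bound. The first value column was identified as untreated from the deposited lists of 606, 2759, 1522 and 1096 higher or lower genes, all of which fit that reading.

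Tables were joined by entry name in Python 3.11.15 with pandas 2.3.3. Coordinates and sequences are from RefSeq R64, where 99.8% of 5090 entries alone at their locus had the same start and end; 91.4% of genes matched it. Members, gene lists and alternatives were chosen with earlier results of these data known, and some gene names in the lists were changed to those of the tables once the files were read. Named genes were mainly the 20 highest, the extremes of each list, all listed pairs and markers, the 10 highest unnamed entries and the entries furthest apart. Some others, such as GCN4, PCL5, PHO5 and PHO84, were named outside this rule. Functions were tested on simulated data.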

Additional observations from a re-analysis of the deposited data

How the results depend on the processing

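No paired analysis was possible because each deposited value pools the 3 untreated libraries; for the same reason no replicate was left out. Counting all entries above 0 whatever their status, the genes apart by over 1.5 times numbered 116, against 77. Among entries alone at their locus they numbered 40, and at a threshold of 1.2 times 300. These settings differ in the entries covered or in the threshold, so the counts cannot be compared as shares. With log2(FPKM + 1) the median log2 ratio was -0.18. Among entries alone at their locus, the 100 highest held 48.9% of summed FPKM, ribosomal proteins 13.95%, and the Spearman correlation of level with coding length was -0.425; over all entries above 0 it was -0.40. With FPKM times locus length the 100 highest held 29.6%, ribosomal proteins 11.2% and the correlation turned to 0.049, since this setting puts back the length that FPKM divides out. It does so only roughly, because locus length also counts introns, which 90 ribosomal protein genes have, and neighbours at shared loci. Under this setting, 5 of 41 lists crossed percentile 50, among them mitochondrial ribosomal proteins (41.6), small nucleolar RNAs (9.28) and fatty acid synthesis (68.0). Under the other 5 settings no list crossed 50. Very short, overlapping and near-identical genes are the least certain, and depth is unknown.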

Other observations

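Several lists not described above lay in the middle of the range. Ergosterol synthesis genes had a median percentile of 72.1, led by ERG2 (sterol isomerase, 280 and 348 FPKM) and ERG25 (methyl sterol oxidase, 244 and 267 FPKM), with HMG1, an HMG-CoA reductase, near the bottom at 29.2 and 34.3 FPKM. Fatty acid synthesis had a median percentile of 46.2, from ACB1, the acyl-CoA binding protein (1099 and 1164 FPKM), to FEN1, a fatty acid elongase (19.1 and 21.4 FPKM), with ACC1, acetyl-CoA carboxylase, next to it (21.3 and 25.6 FPKM). Nitrogen catabolite genes had a median percentile of 62.4 with AGP1, a broad amino acid permease, first at 578 and 662 FPKM and the allantoin gene DAL4 last at 2.49 and 3.29 FPKM. Thiamine and pyridoxine genes had a median percentile of 23.6, with THI4 at 56.7 and 66.3 FPKM, while SNZ2 and SNZ3, relatives of SNZ1, stood at 9.45 and 10.7 FPKM, and 5.56 and 6.72 FPKM. Haploid-specific genes had a median percentile of 35.9, led by RME1, a repressor of meiosis (189 and 226 FPKM).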
